A study of Homo sapiens with 2 samples.

Results

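ZNF genes encode zinc finger proteins, and the members described here are those numbered 500 upward whose transcript was read on 1 or both of 2 expression arrays of HEK-293T cells. HEK-293T is an established cell line of human embryonic kidney origin, transformed and expressing large T antigen of SV40. The control culture received a negative control mimic and the other culture a miR-194 mimic, both synthetic small RNAs at 50 nM, delivered with a lipid reagent and left for 48 h, per the labels. Each group is 1 array, so the conditions cannot be compared by a p-value, and a difference between the cultures, labellings or arrays cannot be told apart from an effect of the mimic. Members were chosen by their symbol and by a log2 signal of 6.1 or more on at least 1 array, on a probe set (a group of probes for a transcript) that the platform annotation gives to a single gene. Of 224 such ZNF genes with a probe set, 175 passed, and they make up 175 of the 12726 genes that passed the same filter. Another 10 such ZNF genes are read only by probe sets given to several genes and were left out. The filter used the signal on either array, so a gene read on 1 array alone enters because it differs: 165 members had 6.1 or more on both arrays, 6 fell under it with miR-194 and 4 fell under it with the control mimic.

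Most ZNF proteins bind DNA through rows of C2H2 fingers, short loops that each hold a zinc ion and contact a few bases. Many carry a KRAB box, a repression domain that recruits TRIM28 (KAP1), which brings in the histone methyltransferase SETDB1 and heterochromatin proteins to silence transposable elements and genes. The KRAB genes lie largely in clusters of related copies on chromosome 19, while other ZNF genes lack the box and act as cofactors, ligases or ribosome assembly factors. A microRNA guides the silencing complex to matching messenger RNAs, mainly through its seed, bases 2 to 8, and lowers their level or translation.

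The mature arms of miR-194 are shown because the mimic supplies this RNA, with the seed in capitals. The labels name miR-194 without the arm, and both were read from RefSeq (GRCh38.p14). The 5p arm is encoded at chr1:220118206-220118227 on the minus strand and again at chr11:64891404-64891425 on the minus strand, and the 3p arm at chr11:64891368-64891389 on the minus strand.
hsa-miR-194-5p: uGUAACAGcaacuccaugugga
hsa-miR-194-3p: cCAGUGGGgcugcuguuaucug
Transcript sequence was not used here, so target sites of these seeds in the members were not counted.

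Signals are log2 MAS5 values, as the authors deposited them. A difference is miR-194 mimic minus control mimic on the log2 scale, after values under 6.1 were set to 6.1. Each gene takes the value of whichever kept probe set had the greatest mean signal. The value after ± is the probe set error: the SD of the disagreement between the leading pair of probe sets of a gene over 6434 genes, divided by the square root of 2. It was 0.38 at a mean log2 signal up to 9.24, 0.31 up to 10.9 and 0.27 above. It leaves out the variation between cultures, which was not measured. Across all kept genes the 2 arrays correlated with r = 0.97 (12726 genes, which are not replicates) and the 3' minus 5' log2 signal of GAPDH, a check of RNA length, was 0.02 in the control array and 0.05 in the miR-194 array. Of 9 marker genes listed for HEK-293T, 8 passed the filter, among them VIM (13.94 and 14.21, control then miR-194) and PAX2 (6.88 and 7.30), while LHX1 did not. Of 12 markers of liver, gut, blood, endothelium, fibroblasts and keratinocytes, 5 passed: COL1A1, COL3A1, CDX2, PECAM1 and, with miR-194 alone, CD3E, which read 5.50 and 6.52. ALB, PTPRC, CDH5 and KRT5 stayed under the filter on both arrays.

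Among the members more genes were lower than higher with miR-194, with ZNF521, ZNF680 and ZNF518A the lowest of those read on both arrays and ZNF853, ZNF669 and ZNF839 the highest. Of the 175 members, 20 (11.4%) stood at least 1.5-fold lower, as did 7.25% of all genes, and 8 (4.57%) stood at least 1.5-fold higher, as did 3.03% of all genes. Past 2-fold, 4 members (2.29%) were lower against 1.41% of all genes, and 1 (0.571%) was higher against 0.448%. Both shares of members lie above those of all genes, and members also read at lower signal, with a median mean log2 signal of 8.37 against 9.42. The 121 members in the low signal class held 14 lower (11.6%) and 7 higher (5.79%) genes, where 8.65% and 5.65% of all genes of that class were lower and higher. In the middle class 2 of 38 members (5.26%) were lower and 1 (2.63%) was higher, against 8.56% and 0.921% of all genes. In the high class 4 of 16 were lower and 0 higher, against 3.42% and 0.476%. Those 4 are ZNF711, ZNF638, ZNF644 and ZNF770. With the 165 members read at 6.1 or more on both arrays alone, 18 (10.9%) were lower and 7 (4.24%) higher, against 7.07% and 2.56% of all genes so read. In RNA from a whole culture, fewer cells with a transcript and less of it per cell cannot be told apart. The median difference was -0.04 over the members and 0.02 over all genes, and 96 members (54.9%) were below 0 against 47.3% of all genes. None of these contrasts was tested.

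**Figure D1:**
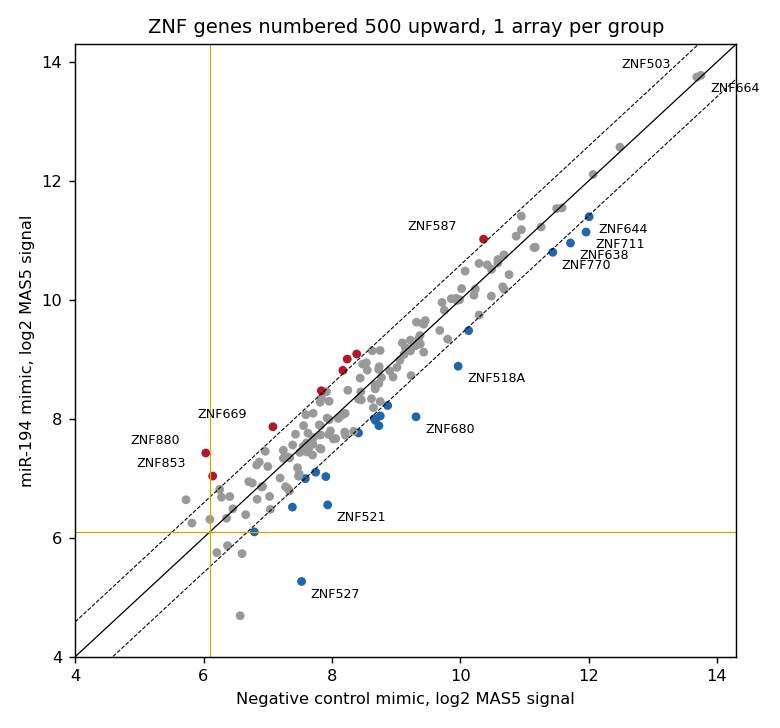
Log2 MAS5 signal of each of the 175 members with the negative control mimic (x) and with the miR-194 mimic (y), 1 array each. The solid line is equality, the dashed lines are 1.5-fold, the yellow lines are the signal threshold of 6.1. In blue, 20 members lie 1.5-fold or more lower, of which ZNF527 and ZNF624 lie under the threshold with miR-194. In red, 8 lie higher, of which ZNF880 lies under the threshold with the control mimic.

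The 200 ZNF genes numbered under 500, which are of the same kind and passed the same filter, had nearly the same shares. Of them 23 (11.5%) were lower and 8 of the 200 higher by 1.5-fold or more, with a median of -0.02. Of the 58 kept ZBTB, ZSCAN and ZKSCAN genes, which pair C2H2 fingers with other domains, 6 (10.3%) were lower and 3 (5.17%) were higher. No difference between these groups of zinc finger genes was tested.

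**Figure D2:**
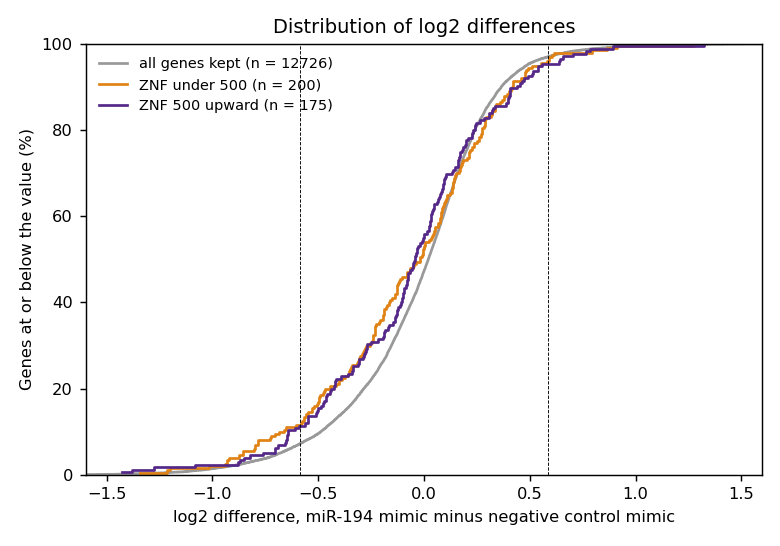
Share of genes (y, percent) at or below each log2 difference (x) for the 175 members, the 200 ZNF genes numbered under 500 and all 12726 genes. Dashed lines mark 1.5-fold; the curves of both ZNF groups lie above that of all genes at the left dashed line, at 11.4%, 11.5% and 7.25%.

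The large regulators without a KRAB box were the role group with the most lower members. Of 9 kept genes in the list, 4 were lower by 1.5-fold or more (ZNF521, ZNF711, ZNF638 and ZNF644), 0 were higher, and 7 were below 0, where 7.25% of all genes were lower, 3.03% higher and 47.3% below 0. Among all genes in the length range of the longest members, to which most of this list belongs, 10.7% were lower. Of the longest members themselves 12 of 59 (20.3%) were lower, and of the ZNF genes under 500 in that range 14 of 73 (19.2%). The list was chosen with earlier results of these data known, and no difference between the list and other long ZNF genes was tested. ZNF521, a cofactor of progenitor cells in blood and brain, read 7.93 in the control culture and 6.55 in the miR-194 culture, a difference of -1.38 ± 0.38 (2.61-fold lower). Its other probe set read 6.60 and 6.34, a smaller difference of -0.26 near the threshold. ZNF711, an X-linked gene of intellectual disability, read 11.96 and 11.14 (-0.82 ± 0.27), and its other probe set 7.06 and 7.02 (-0.04). Both ZNF521 and ZNF711 were therefore lower past 1.5-fold on the higher-reading probe set only.

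ZNF638, a DNA-binding protein that acts with the HUSH complex in silencing unintegrated retroviral DNA, read 11.72 and 10.95 (-0.76 ± 0.27). Its 5 probe sets ranged from -0.89 to 0.28. Those of the _x_at type, which can read related sequences, gave -0.76 and -0.89, and without shared-sequence types the gene stood at 0.28, so its direction depends on the probe set. ZNF644, a partner of the histone methyltransferases EHMT1 and EHMT2, read 12.01 and 11.40 (-0.61 ± 0.27), while its other probe sets, at 6.65 to 6.97, gave 0.14 and 0.27. With the mean over its probe sets ZNF644 was at -0.07.

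The remaining 5 genes of that list were within 1.5-fold. ZNF516, a regulator of brown fat genes, read 7.83 and 7.49 (-0.34 ± 0.38). ZNF827, which binds the NuRD complex at telomeres, read 9.38 and 9.26 (-0.12 ± 0.31), with 5 probe sets from -0.59 to 0.51. ZNF618 read 9.33 and 9.25 (-0.08 ± 0.31). The neuronal repressor ZNF536 was at 0.09 ± 0.38 and ZNF609 at 0.34 ± 0.38, the highest of the group, with other ZNF609 probe sets down to -0.35. All 5 differences were within the probe set error. ZNF608, the tenth listed gene, has no single-gene probe set in the annotation.

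The NET family and the Z3 genes showed no difference past 1.5-fold. ZNF503 and ZNF703, repressors of the NET family that lack long finger rows, read 13.68 and 13.74, and 12.49 and 12.57, differences of 0.06 ± 0.27 and 0.08 ± 0.27 on 1 probe set each. ZNF592, ZNF532 and ZNF687, which associate with ZMYND8 in the Z3 complex, were at -0.01 ± 0.31, 0.27 ± 0.38 and 0.47 ± 0.38. ZNF687 stood highest on its only probe set, with 7.59 and 8.07.

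The members with roles at the ribosome were likewise within 1.5-fold. ZNF598, a ubiquitin ligase that marks collided ribosomes, read 9.72 and 9.96 (0.24 ± 0.31). Its other probe set read 4.34 and 6.19, so it was kept through the miR-194 array alone and the filter fixed its sign. ZNF622, a maturation factor of the large ribosomal subunit, read 10.29 and 10.61 (0.32 ± 0.31). ZNF593, another factor of that subunit, read 11.58 and 11.55 (-0.04 ± 0.27). These 3 genes were read at middle to high signal, and none differed by more than about its error.

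Among other genes without a KRAB box or linked to disease, 2 of 9 kept genes were lower by 1.5-fold or more, against 7.25% of all genes. ZNF518A read 9.97 and 8.88 (-1.08 ± 0.31, 2.12-fold lower), but its other probe sets gave -0.06 and 0.27, and the mean over the 3 was -0.29. Its relative ZNF518B, a partner of EHMT2, read 9.80 and 9.34 (-0.46 ± 0.31), with another probe set at 0.23. The probe sets at 0.27 and 0.23 read 3.41 and 5.62 in the control culture, under 6.1, so the filter fixed their sign. The value of 0.27 also enters the mean of ZNF518A. ZNF804A, a gene at a schizophrenia risk locus, read 8.66 and 8.003 on its only probe set (-0.66 ± 0.38). The lower calls in this group thus rest on single probe sets.

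ZNF507 was at -0.51 ± 0.31 with the other probe set at -0.15. ZNF652, a partner of CBFA2T3, was at -0.08 ± 0.38 on its leading probe set, while its others ranged down to -0.63. ZNF512 read 10.95 and 11.41 (0.45 ± 0.27) with another probe set at 0.60, and ZNF830, a protein of the splicing machinery, 10.08 and 10.48 (0.41 ± 0.31). ZNF512 and ZNF830 were the highest of the list, and all of their probe sets were above 0. ZNF746 (PARIS), a substrate of parkin, was at 0.08 ± 0.31 and ZNF513, a gene of retinal degeneration, at 0.16 ± 0.38. ZNF568, ZNF674 and ZNF750, the last a factor of epidermal differentiation, stayed under the threshold on both arrays and are no members.

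The other lower genes past 1.5-fold belong to no role group, and their functions are left out here. ZNF680 read 9.31 and 8.03 (-1.28 ± 0.38, 2.42-fold lower) on a single _x_at probe set. ZNF658 read 7.91 and 7.03 (-0.88 ± 0.38), ZNF670 7.38 and 6.52 (-0.87 ± 0.38), and ZNF615 8.73 and 7.88 (-0.85 ± 0.38). ZNF605 read 8.75 and 8.05 (-0.71 ± 0.38) and ZNF823 8.68 and 7.97 (-0.70 ± 0.38). These 6 genes have 1 kept probe set each, so no second reading bears on them, and with the floor raised to 7 ZNF670 was at -0.38. ZNF616, ZNF564, ZNF623 and ZNF595 completed the lower genes, named after their values were seen, between -0.65 and -0.59. ZNF595 was the only member with probe sets 1.5-fold apart from 0 in both directions, at -0.59 and 0.61.

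ZNF765 and ZNF770 were the lower members whose 2 kept probe sets all passed 1.5-fold. ZNF765 read 10.13 and 9.48 on an _x_at probe set (-0.65 ± 0.31) and 10.27 and 9.01 on the other (-1.26). ZNF770 read 11.44 and 10.80 (-0.64 ± 0.27), and 6.88 and 6.26 on a probe set of a shared-sequence type (-0.62). For both genes each probe set was lower with miR-194, while for the 8 other lower genes with a second probe set at least 1 probe set was within 1.5-fold or above 0. Of the 20 lower members, 10 had a second kept probe set; it was below 0 for 7 and lower by 1.5-fold or more for 3. Over all members with a second probe set 51.9% of the 81 were below 0, and over all genes 46.3% of 6434. A second probe set under 6.1 on 1 array had its direction fixed by the filter, as for ZNF527 and ZNF616 among the lower members.

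Of the 8 higher members, ZNF587 was the only gene with more than 1 kept probe set and all of them past 1.5-fold. Its probe sets read 10.36 and 11.02 (0.66 ± 0.31) and 8.26 and 9.14 (0.88). Both are of the _x_at type, and the annotation gives other probe sets to ZNF587 and its close copy ZNF417 together, so the value of ZNF587 is uncertain. ZNF853 read 6.14 and 7.04 (0.89 ± 0.38) and was at 0.04 with the floor at 7. ZNF669 read 7.08 and 7.87 (0.78 ± 0.38) and ZNF586 8.39 and 9.09 (0.70 ± 0.38), both on 1 probe set. ZNF839 read 8.24 and 9.004 (0.77 ± 0.38), but its other probe set read 7.78 and 7.76 (-0.02). ZNF551 read 8.17 and 8.81 (0.64 ± 0.38), and its other probe sets, each under 6.1 on 1 array, gave -0.57 and 0.00. ZNF514 was at 0.64 ± 0.38.

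Just under 1.5-fold on the higher side stood ZNF528 (0.56 ± 0.38), ZNF580 (0.54 ± 0.38) and ZNF875 (0.51 ± 0.38). Of the 8 higher members 3 had a second kept probe set, and it was above 0 for 1 of them. A second probe set thus shared the direction for 7 of 10 lower and 1 of 3 higher members. For ZNF616, ZNF527 and ZNF551 that probe set was under 6.1 on 1 array, so the filter and floor fixed its direction. The counts are therefore not a full measure of agreement.

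**Figure D3:**
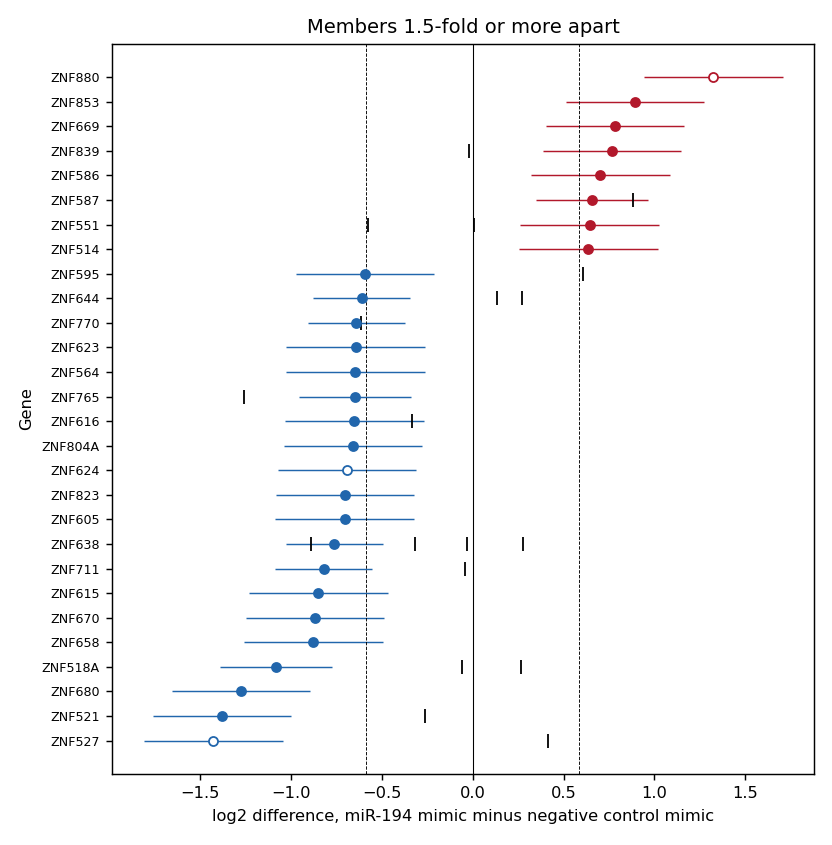
Log2 difference (x) of the 28 members 1.5-fold or more apart (y). Circles are the leading probe set of each gene with its probe set error, open where 1 array was under 6.1; black ticks are the gene's other kept probe sets, and dashed lines mark 1.5-fold. All ticks lie past the dashed line on the circle's side for ZNF765, ZNF770 and ZNF587 alone among genes that have ticks.

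Members under 6.1 on 1 array have only a bound for their leading probe set. ZNF527 read 7.53 in the control culture and 5.27 in the miR-194 culture, at least 2.69-fold lower, yet its other probe set read 5.96 and 6.51, at 0.41. That spread of 1.84 between probe sets was the widest of the 81 members with more than 1. ZNF624 read 6.79 and 6.099 and was at least 1.62-fold lower. On the other side ZNF880 read 6.04 and 7.42 (at least 2.51-fold higher) and ZNF557 read 5.73 and 6.64 (at least 1.45-fold higher). With the floor at 7, ZNF880 was at 0.42, ZNF527 at -0.53, and ZNF624 and ZNF557 at 0, so the calls for ZNF527, ZNF624 and ZNF880 depend on the floor.

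Just inside the signal threshold were ZNF780B, whose signals were 6.21 and 5.75, and ZNF749, with 5.82 and 6.25. Just outside were ZNF613, with 6.08 and 5.51, and ZNF568, with 5.40 and 6.04. The leading members by probe set signal were ZNF664 (13.75 and 13.77), ZNF503, ZNF703, ZNF706 (12.07 and 12.11) and ZNF644, an order that does not rank transcript amounts, since probe sets differ in their response. ZNF664 and ZNF706 were at 0.02 ± 0.27 and 0.04 ± 0.27, with other probe sets at -0.49 and -0.58 as their lowest. Over the 81 members with 2 or more kept probe sets, the median range between them was 0.37 and the signs differed for 45. Probe sets under 6.1 on 1 array, whose sign the filter fixed, were counted.

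Long ZNF genes were lower more often by count than short ones, a difference that was not tested. Genomic lengths came from RefSeq (GRCh38.p14) for all 175 members and 12715 of the 12726 genes, and members were put in 3 classes of length. Of the 59 shortest (0.97 to 16.0 kb), 1 (1.69%) was lower by at least 1.5-fold and 5 (8.47%) were higher, with a median of 0.09. Of the 57 in the middle class (16.5 to 29.7 kb), 7 (12.3%) were lower and 1 was higher, with a median of -0.10. Of the 59 longest (29.9 to 488.0 kb), 12 (20.3%) were lower and 2 were higher, with a median of -0.19. Among the longest class are ZNF521 (290.2 kb), ZNF804A (341.0 kb), ZNF644 (106.7 kb), ZNF638 (103.3 kb) and ZNF518A (75.6 kb), while ZNF770 (9.95 kb) was the lower gene of the shortest class.

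Over all genes, 3.53%, 4.25% and 10.7% were lower in the short, middle and long ranges, a larger share than that of the members in the short range and smaller ones in the middle and long ranges. The ZNF genes numbered under 500 had 0 of 54, 9 of 73 (12.3%) and 14 of 73 (19.2%) lower in these ranges, close to the shares of the members. Higher by 1.5-fold or more were 4.69%, 2.57% and 2.10% of all genes in the same ranges. Of the ZNF genes numbered under 500, 4 of 54 (7.41%), 2 of 73 (2.74%) and 2 of 73 (2.74%) were higher. Taken across genes, length and difference had a Spearman's rho of -0.36 over the 175 members, -0.24 over the 200 other ZNF genes and -0.22 over all genes, but 0.02 over the 58 ZBTB, ZSCAN and ZKSCAN genes and -0.01 over the 769 genes of chromosome 19 that are no members; genes of 1 array pair share library and labelling, so these are descriptions with no p. The second probe sets of members, not used for the gene's value, had medians of 0.08 (23 genes), -0.03 (24 genes) and -0.11 (34 genes) from the short to the long class. The order of the medians was thus the same on the second probe sets, at a smaller spread. By count 1 of 23, 1 of 24 and 4 of 34 were lower by 1.5-fold or more, against 515 of 6434 over all genes. In the same order 1, 0 and 2 were higher, against 430 of 6434. The middle class thus held no more lower genes than the shortest on the second probe sets. The second probe sets were read from the same RNA on the same 2 arrays, so they are no independent reading of the length pattern. Whether RNA quality or labelling has a part in the length pattern was not tested.

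**Figure D4:**
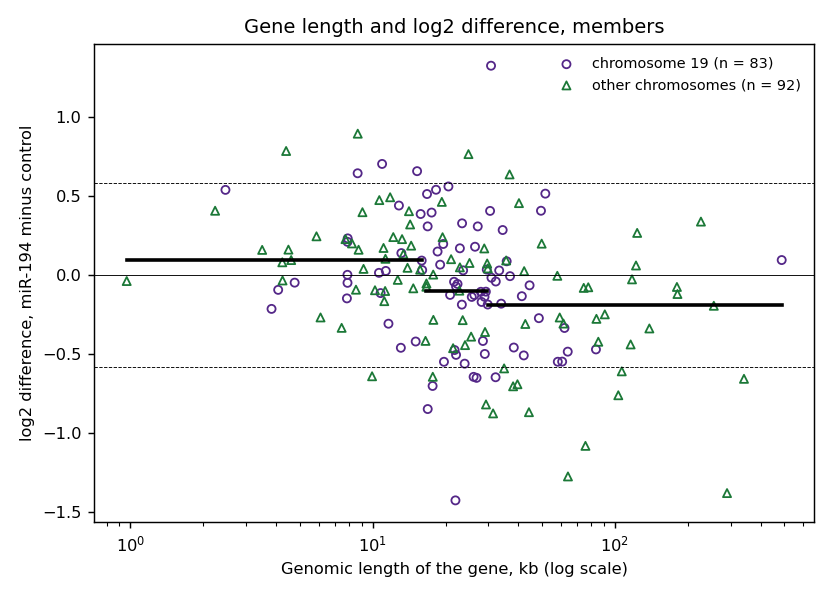
Log2 difference of each member (y) against its genomic length in kb (x, log scale), with circles for chromosome 19 and triangles for other chromosomes. Thick bars are the medians of the 3 length classes, at 0.09, -0.10 and -0.19, and dashed lines mark 1.5-fold.

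Members on chromosome 19 were lower less often by count than those elsewhere, a difference that was not tested. By RefSeq (GRCh38.p14), 83 of the 175 members lie on chromosome 19, and 6 of them (7.23%) were lower and 4 (4.82%) higher. Of the 92 members on other chromosomes, 14 (15.2%) were lower and 4 (4.35%) higher. Over all genes 7.25% were lower and 3.03% higher, so the lower share on chromosome 19 was that of all genes. The medians were close, at -0.05 and -0.03. In the longest class 1 of 24 members on chromosome 19 (4.17%) and 11 of 35 elsewhere (31.4%) were lower. Their median lengths were 39.8 and 75.6 kb, and 10.7% of all genes in that length range were lower. In the middle class the counts were 5 of 36 and 2 of 21, against 4.25% of all genes in its range. The 769 genes of chromosome 19 that are no members had a median of 0.10, with 31 (4.03%) lower and 39 (5.07%) higher.

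No pair of neighbouring members passed 1.5-fold in the same direction. With 11.4% of members lower and 4.57% higher (7.25% and 3.03% of all genes), few such pairs could arise by count alone. Taking members that follow each other with no other protein-coding gene starting between them, 7 runs of 3 or more held 28 members, and there were 40 neighbouring pairs in all. The signs were the same in 25 of the 40 pairs, where 54.9% of all members and 47.3% of all genes were below 0. The median gap within a pair was 0.44 on the log2 scale, and neither value was tested. In the run ZNF875, ZNF527, ZNF569, ZNF570 and ZNF793 the differences were 0.51, -1.43, -0.55, -0.13 and -0.01. In the longest run, ZNF671, ZNF776, ZNF586, ZNF552, ZNF587B, ZNF587 and ZNF814, the values were 0.21, 0.03, 0.70, -0.15, 0.09, 0.66 and 0.09. ZNF586 and ZNF587 were the higher genes of that run, with genes near 0 between and beside them. In the run ZNF619, ZNF620 and ZNF621 on chromosome 3 all values lay between -0.05 and 0.05.

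**Figure D5:**
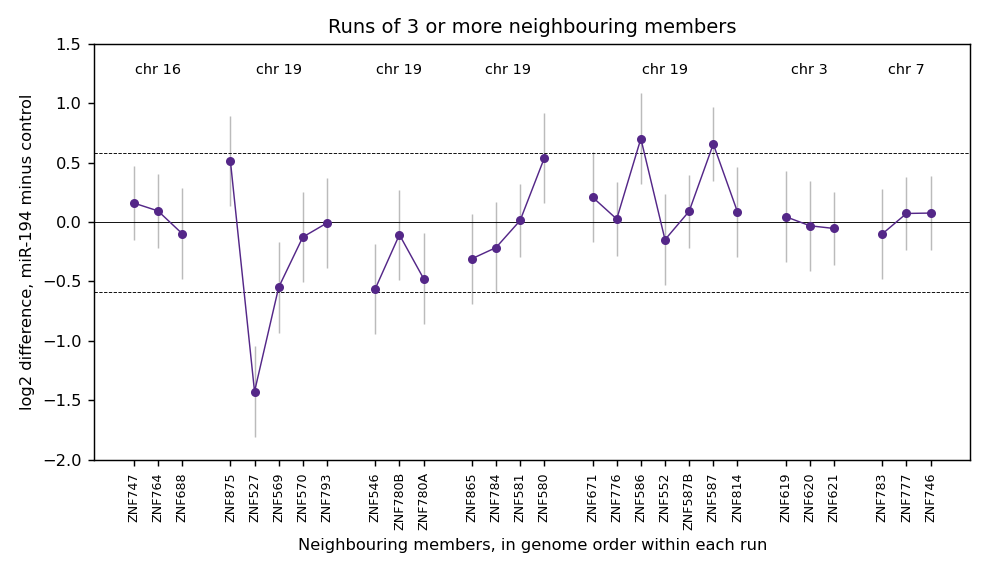
Log2 difference (y) of members in the 7 runs of 3 or more neighbours, in genome order within each run (x), with the probe set error as grey bars and dashed lines at 1.5-fold. ZNF527 at -1.43, a bound, stands between ZNF875 at 0.51 and ZNF569 at -0.55, and ZNF586 and ZNF587 stand above genes near 0.

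The members shared promoter letters that the choice by name and signal did not use. RefSeq (GRCh38.p14) gave a promoter, 250 bases before to 50 after the start of the gene, for 149 of the 175 members. The letters CCGGAA, the core of the site bound by ETS factors, occurred on either strand in 78 of them (52.3%), in 29.1% of 10339 promoters of kept genes and in 17.6% of all 27305 promoters. The letters ACTACA, the start of the longer element bound by ZNF143, occurred in 30 (20.1%), against 8.94% of kept genes and 8.95% of all promoters. Both were present in 19 members (12.8%) and in 2.78% of kept genes. The ZNF genes numbered under 500 had like shares, 52.9% and 26.4%.

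Further motifs were counted in the same way, on both strands. The GC box GGGCGG was in 62.4% of the members' promoters and 69.8% of those of kept genes. The CCAAT box, spelled as its name, was in 47.0% and 36.9%. The TATA box TATAAA was in 4.03% and 5.84%. The partial NRF1 site GCATGCG was in 6.71% and 6.51%, the YY1 core AAGATGG in 8.05% and 7.52%, the E-box CACGTG in 7.38% and 10.3%, and the cyclic AMP element TGACGTCA in 3.36% and 3.36%. The median GC content was 62.0% in members and 65.3% in kept genes. A match is a run of letters and shows no binding.

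The ETS letters occurred in lower and in higher members, and the shares were not tested. They were in 9 of 18 promoters of lower members and 5 of 8 of higher members, and in 26 of 50, 28 of 50 and 24 of 49 promoters from the short to the long class. ACTACA was in 3 of 18 and 3 of 8. The 4 promoters printed here show CCGGAA in both directions of change, with ACTACA in the higher pair only: the higher genes of the same run, ZNF586 (chr19:57769426-57769725, plus strand) and ZNF587 (chr19:57849609-57849908, plus strand), and the lower genes ZNF765 (chr19:53394899-53395198, plus strand) and ZNF518A (chr10:96129465-96129764, plus strand). These 4 were picked for display. ACTACA also occurred in 3 of 18 promoters of lower members, so the printed contrast shows no pattern by direction. Capitals mark CCGGAA or its complement and ACTACA.
ZNF586: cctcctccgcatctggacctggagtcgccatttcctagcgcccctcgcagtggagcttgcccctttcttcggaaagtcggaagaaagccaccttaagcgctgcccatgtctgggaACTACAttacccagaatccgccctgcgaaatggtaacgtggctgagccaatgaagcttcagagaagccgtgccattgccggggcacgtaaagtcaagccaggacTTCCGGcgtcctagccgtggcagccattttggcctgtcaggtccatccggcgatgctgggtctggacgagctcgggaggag
ZNF587: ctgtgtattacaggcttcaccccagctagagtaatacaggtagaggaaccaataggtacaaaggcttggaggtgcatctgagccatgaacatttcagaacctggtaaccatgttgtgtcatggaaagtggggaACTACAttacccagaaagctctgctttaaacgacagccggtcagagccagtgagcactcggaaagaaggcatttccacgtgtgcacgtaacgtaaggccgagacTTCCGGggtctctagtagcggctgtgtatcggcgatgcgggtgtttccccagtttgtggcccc
ZNF765: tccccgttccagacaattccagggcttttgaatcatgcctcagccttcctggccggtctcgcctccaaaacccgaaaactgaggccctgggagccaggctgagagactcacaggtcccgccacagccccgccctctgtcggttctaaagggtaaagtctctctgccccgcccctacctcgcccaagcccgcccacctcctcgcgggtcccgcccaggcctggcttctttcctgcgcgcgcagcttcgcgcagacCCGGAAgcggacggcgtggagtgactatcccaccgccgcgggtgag
ZNF518A: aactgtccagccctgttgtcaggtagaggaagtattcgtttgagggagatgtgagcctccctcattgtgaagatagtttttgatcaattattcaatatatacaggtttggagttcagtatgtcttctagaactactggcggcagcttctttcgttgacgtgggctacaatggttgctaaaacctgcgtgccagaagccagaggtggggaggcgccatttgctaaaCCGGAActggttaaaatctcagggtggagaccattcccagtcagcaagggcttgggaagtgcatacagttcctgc
In ZNF586 and ZNF587 the complement of CCGGAA began 31 and 13 bases before the start site and ACTACA 135 and 117 bases before it. ZNF518A had CCGGAA 25 bases before its start and ZNF765 had it just after its start.

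Genes listed as silencing machinery, those that KRAB proteins recruit together with other heterochromatin factors, were lower about as often as all genes. Of 37 listed names, 34 had a kept gene; 2 (5.88%) were at least 1.5-fold lower and 0 higher, against 7.25% and 3.03% of all genes. TRIM28, the scaffold that the KRAB box binds, read 11.52 and 11.87 (0.35 ± 0.27) and SETDB1 read 9.52 and 9.81 (0.29 ± 0.31). The lower genes were ATRX, a chromatin remodeller that works with DAXX, which read 11.15 and 9.50 with all 4 probe sets between -1.65 and -0.68, and TASOR, the scaffold of the HUSH complex, which read 11.46 and 10.75 (-0.72 ± 0.27) with its other probe set at -0.91. All probe sets of both genes were lower past 1.5-fold. The other 32 genes lay within 1.5-fold on their leading probe set. Other probe sets passed 1.5-fold upward for RBBP4 (to 0.87) and MORC2 (to 0.65), and downward for TRIM33 (to -0.70) and PPHLN1 (to -0.67).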

How the data were processed

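Total RNA of 2 HEK-293T cultures was read on Affymetrix 3' expression arrays, 1 per group. The authors deposited log2 signals for 54675 probe sets, made with MAS5 per the submitters' processing notes; the sources used here do not give the version, scaling target or log base. Taken as log2, the deposited values had equal 2% trimmed means of linear signal (500.1), which fits a log2 scale. Gene names came from the platform annotation (41097 probe sets with 1 gene, 1801 with several left out, 11777 not listed) and matched RefSeq symbols for all 175 members. Probe sets at 6.1 or more on either array were kept, lower signals set to 6.1, and differences described at 1.5-fold and 2-fold, with no test (Python 3.11.15, pandas 2.3.3). The main values had no further normalization, and loess over the 2 arrays (statsmodels, span 0.3) was used only among the alternatives. The counting code was tested on simulated signals with less noise than the probe set error and shifts larger than 1.5-fold. That test does not bear on how reliable the 1.5-fold calls are. Named genes were the 10 lowest and 10 highest members read on both arrays, members whose probe sets all passed 1.5-fold, 2 bounds per direction, the 5 with the highest signal, the 2 genes on either side of the threshold, and the role lists. Members, lists and the length classes were chosen with earlier results of these data known. Splits by KRAB box and finger number were planned; protein sequences were not used here, so they were not run. The number of arrays limits the precision.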

Additional observations from a re-analysis of the deposited data

How the results depend on the processing

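Of 175 members, 20 were lower and 8 higher by 1.5-fold or more with a median of -0.04, and over 11 alternatives the lower count ran from 4 to 22 and the higher count from 1 to 10. The counts were within 1.5 times under median scaling, quantile normalization, loess, the mean signal filter at 6.1, signal on both arrays, no floor, a floor at 7 and the mean over probe sets, where the lower count was 14. At 2-fold they were 4 lower and 1 higher. With a mean log2 signal of 8 or more, which left 102 members, they were 13 and 5. Without probe sets whose names end in _s_at, _x_at or _a_at, which left 145 members, 4 were higher and the median was -0.076. In that setting 13.1% of members stood lower and 2.76% higher, against 8.61% and 3.09% of all genes. The lower share of members thus stayed above that of all genes in every alternative. The higher share stayed above it in all but the setting without these probe sets. These contrasts were not tested. With a floor at 7 the median was 0, since values under the floor have no difference. Without the shared-sequence types ZNF551 (-0.57), ZNF638 (0.28) and ZNF839 (-0.0215) changed sign; the cause was not tested. Of 358 values of the 52 named genes under alternatives, 334 moved by no more than the probe set error and 24 moved further. In all 15 changed sign: the 3 just given, and 12 of ZNF503, ZNF592, ZNF618, ZNF664 and ZNF706, genes under 1.5-fold. In the longest class the lower count ran from 9 to 13, against 1 in the shortest, over the alternatives other than 2-fold and the mean signal of 8, in alternatives chosen after seeing the data. The largest shift of the median of all genes was -0.03, without the shared-sequence types. The planned results by KRAB box and finger number were not run. No paired analysis was possible because each group holds 1 array, and probe sets near 6.1 limit the differences of low-signal members.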

Other observations

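By chromosome, the 13 members on chromosome 16 had a median log2 difference of 0.16 and lay between -0.10 and 0.49, with 0 of them past 1.5-fold. The 4 members on chromosome 4 were all below 0, between -0.59 and -0.12, and the 5 members on chromosome 9 were all below 0, between -0.88 and -0.03. Over all genes 47.3% were below 0, and 7.25% were lower and 3.03% higher by 1.5-fold or more. Most of the chromosome 16 members were in the shortest length class, and none of those on chromosomes 4 and 9 were, so chromosome and length cannot be told apart here. These chromosomes were picked after their values were seen, and their values were not tested.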
